A study of Homo sapiens with 12 samples.

Results

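Neural differentiation was described here by comparing 3 neural libraries (NEUR) with 3 undifferentiated libraries (UNDIF), 6 of the 12 RNA-sequencing libraries of the series. All were made from polyadenylated RNA of H9, an established embryonic stem cell line of human origin, given as wild type in the labels. Undifferentiated cells were kept in mTeSR on Matrigel. Neural cells were grown to near confluence, held in knockout serum replacement medium with the SMAD pathway inhibitors that the labels spell A83-10 and Dorsomorphine, and then moved to a medium for neural stem cells that contained EGF and bFGF. A further 3 libraries came from cells differentiated in this way with DMSO, a solvent, added (DMSO_NEUR), and their levels are given beside the untreated ones under the name vehicle. The remaining 3 libraries, with the USP7 inhibitor FT671, entered only the estimate of the spread. Only 1 line was used. Nothing in the labels states that the replicates were cultured separately, and p-values therefore describe spread among libraries that may be technical.

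Inhibition of both SMAD branches removes the activin and BMP signals that hold stem cells in the pluripotent state or drive them to other fates, and cells then take up a neuroepithelial fate. Passage in EGF and bFGF selects for proliferating, adherent progenitors. The textbook course of this change includes a switch from CDH1 to CDH2, loss of pluripotency factors and gain of PAX6. Described beside such genes are those of attachment to the matrix and the cytoskeleton, inflammatory and growth factor signalling, ion channels and synaptic genes, growth and chromatin, and regulatory RNAs.

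The unit of all levels is the normalized read count, the authors' count per gene divided by 1 size factor per library. Reads summed over the 13310 genes ran from 15906471 to 16072737 per undifferentiated library and from 16404262 to 17104970 per neural library. Log2 values correlated across genes with Pearson r of 0.992 to 0.994 among undifferentiated libraries, 0.988 to 0.995 among neural libraries and 0.778 to 0.788 between the groups, where genes are not independent replicates. NEUR replicate 3 departed from the other 2 neural libraries in a way that tracked exonic length (Spearman rho -0.658 across 10913 genes). The log2 fold change between the groups did not track it, with a rho of -0.0344 with that library and 0.0315 without it. The marker genes followed the labels. POU5F1, a core pluripotency factor, had 2624, 2281 and 2472 counts in the undifferentiated libraries and 1.96, 0.978 and 0 in the neural ones, and its groups were far apart. PAX6, a transcription factor of neural progenitors, had 187, 190.1 and 152 and 3549.5, 3681 and 3325. NR2F1, a nuclear receptor of the developing forebrain, had 7.65, 6.59 and 4.65 and 696, 642 and 710.3, and VIM, the filament protein vimentin, had 3109.6, 3128 and 2819.5 and 45297, 42958 and 53747. Each marker was on its labelled side in every library.

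Most of the measured genes differed. By limma with Benjamini-Hochberg adjustment, 10917 of 13310 genes (82.0%) passed an adjusted p of 0.05. Of all genes tested, 40.4% were higher in neural cells (5376) and 41.6% lower (5541). A list divided in about these proportions is at the background for calls without a fold minimum. With a change of at least 2-fold as well, 15.4% of all genes were higher (2056) and 16.5% lower (2200), 32.0% in all. Groups did not overlap for 80.2% of genes. The median log2 fold change of all genes was -0.03. When libraries were scaled by their totals in place of the deposited size factors, this median shifted by -0.14, so list medians within that distance of 0 have no firm direction. Without NEUR replicate 3, 10827 genes were called, 2067 of them at least 2-fold higher and 2214 at least 2-fold lower. The members of each list below are all its genes in the table, and RNA of a bulk sample cannot tell fewer cells of a type from less RNA per cell.

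**Figure D1:**
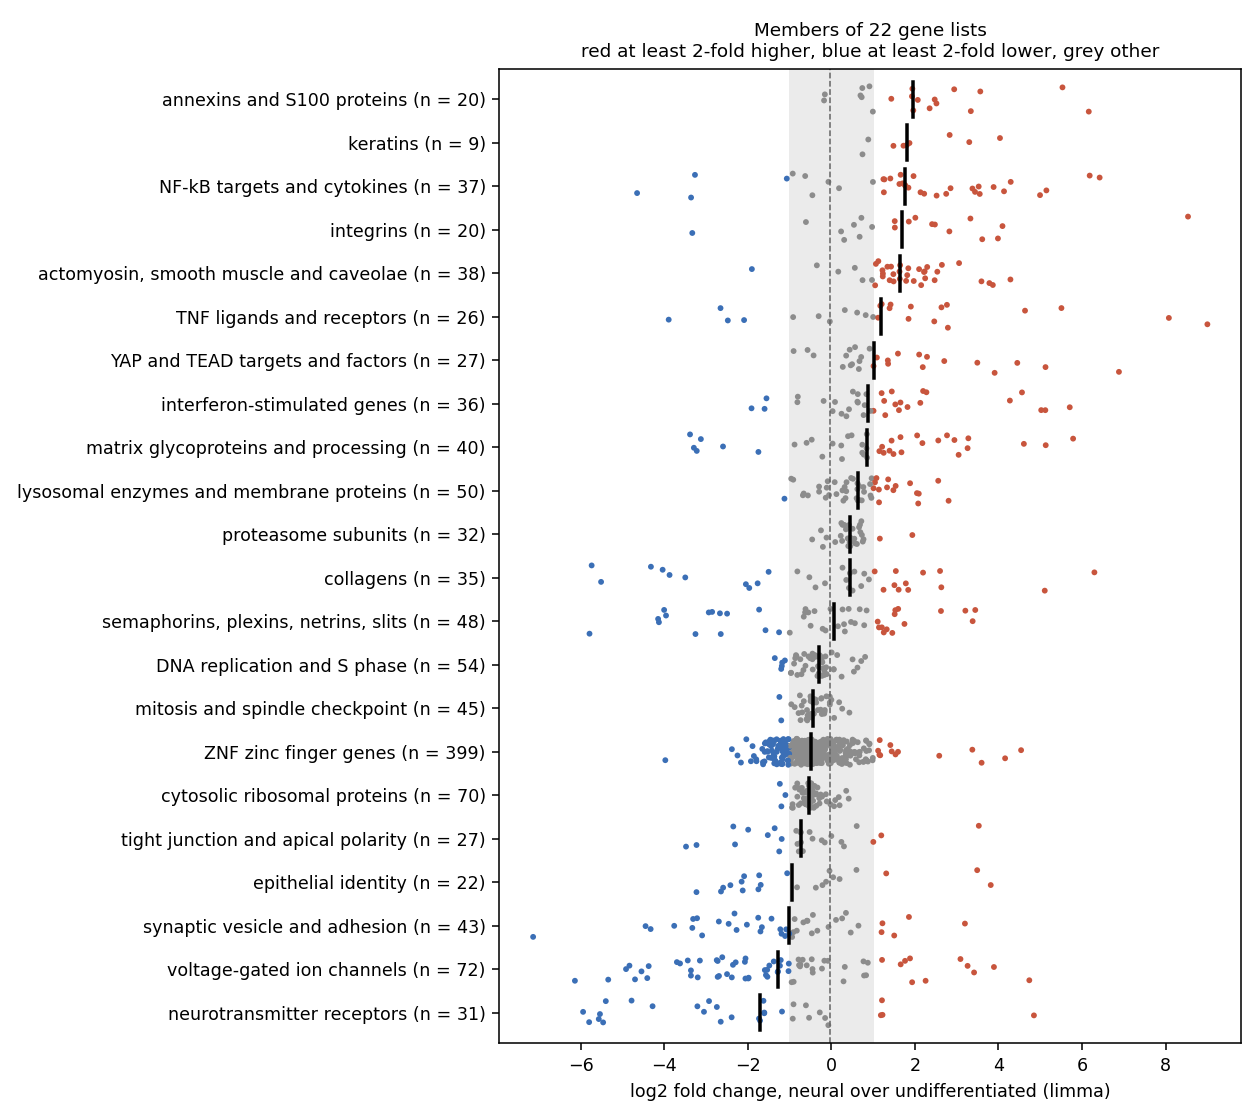
Log2 fold change (neural over undifferentiated, x axis) of every tested member of 22 gene lists (rows), with 1 point per gene and a vertical bar at the list's median. The grey band marks changes under 2-fold and the dashed line the median of all 13310 genes at -0.03. Contractile, annexin and keratin genes lie to the right, and channel, receptor and synaptic genes to the left. The row labelled voltage-gated ion channels also holds channels that are not voltage-gated.

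The genes with the largest rises included surface, matrix and secreted proteins as well as a kinase and transcription factors. TGM2, a transglutaminase that crosslinks matrix proteins, had 178, 147 and 179 counts in undifferentiated and 38022, 36608 and 33596 in neural libraries (log2 fold change 7.74 ± 0.08 (SE), adjusted p = 8.53e-20), and the vehicle libraries had 37384, 40948 and 41451. Every neural and vehicle library was far above every undifferentiated one. APLN, which encodes the peptide hormone apelin, went from 96.6, 47.98 and 74.4 to 10410.0, 11161 and 11421 (log2 fold change 7.27 ± 0.17 (SE), adjusted p = 5.58e-16). TFPI2, an inhibitor of serine proteases in the matrix, went from 69.8, 72.4 and 76.2 to 11178, 10202 and 11553. TNFSF15, a TNF family cytokine, went from 23.9, 12.2 and 13.01 to 4935, 4221 and 4395, and the TNF receptor family gene TNFRSF9 from 0, 0 and 1.86 to 911, 726 and 581. Each of these genes had neural libraries above all undifferentiated ones, as the rule that chose them required. ITGB6, an integrin subunit of epithelia that activates latent TGF-beta, had 4.78, 0.941 and 5.58 before and 1765, 1627 and 1319.9 after. GASK1B, a Golgi-associated kinase, reached 1810.0, 1685 and 1475 from 0, 0 and 0.930. CLSTN2, a calsyntenin of the synaptic membrane, reached 7482, 6062 and 4181 from 80.4, 58.3 and 50.2, and CNTN6, a neural contactin, 553, 497 and 455 from 1.91, 0 and 0. Among transcription factors, FLI1, an ETS factor known from endothelium and blood, rose from 7.88 ± 2.49 to 1115 ± 75.1 (SD, n = 3) and RUNX1, known from blood formation, from 6.31 ± 3.95 to 537 ± 19.6.

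Retinoid enzymes, peptide genes and long noncoding RNAs were among the genes with the largest falls. ESRG, a noncoding RNA of human embryonic stem cells, had 4164, 3362 and 3404 counts before and 0.978, 0.978 and 0.996 after differentiation, a ratio of 3702 with a 95% exact counting interval of 1265 to 17936. CYP26A1, which degrades retinoic acid, had 1378, 1381 and 1195 before and 0.978, 2.94 and 1.99 after (log2 fold change -8.85 ± 0.49 (SE), adjusted p = 4.11e-11). CRABP1, which carries retinoic acid in the cytoplasm, fell from 3054 ± 323 to 15.8 ± 5.32, and LRAT, which esterifies retinol, from 1317 ± 33.5 to 9.84 ± 0.981. SCGB3A2, a secretoglobin, fell from 562 ± 58.1 to 1.97 ± 1.96 and TAC3, which encodes neurokinin B, from 305 ± 22.4 to 2.29 ± 2.46. The noncoding RNA LNCPRESS1 had 198, 186 and 170.1 before and no read after, at least 188-fold lower against a floor of 3 reads over the group, which covers counting error only. In the table, 21 genes had no read in any neural library and 17 none in any undifferentiated library. The latter included HOXB2, a factor of the hindbrain, which reached 65.5, 92.95 and 123 counts (at least 99.4-fold higher), and CCL20, a chemokine, which reached 72.4, 81.2 and 104 (at least 90.96-fold higher).

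Shares of the summed counts shifted between genes. The 20 genes with the largest gain in share, chosen for that gain and given as a description, held 1.29 ± 0.0779% of normalized counts in undifferentiated and 5.12 ± 0.0240% in neural cells (SD, n = 3), and 5.02 ± 0.145% with vehicle. The 20 with the largest loss went from 5.28 ± 0.148% to 2.92 ± 0.186%. ACTB, cytoplasmic actin, rose from 0.345 ± 0.0394% to 0.813 ± 0.0496% of counts, and MYH9, the heavy chain of nonmuscle myosin, from 0.0934 ± 0.00979% to 0.362 ± 0.0201%. SFRP2, a secreted WNT antagonist, rose from 0.0307 ± 0.00202% to 0.254 ± 0.0117%. On the losing side, EEF2, the translation elongation factor, went from 0.636 ± 0.0203% to 0.359 ± 0.0189%. PODXL, a sialomucin of the apical surface, went from 0.227 ± 0.00789% to 0.0417 ± 0.00438%, and LIN28A, which blocks maturation of the let-7 microRNA, from 0.233 ± 0.00671% to 0.0533 ± 0.00174%. These shares are not per length and do not rank genes by molecules.

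**Figure D2:**
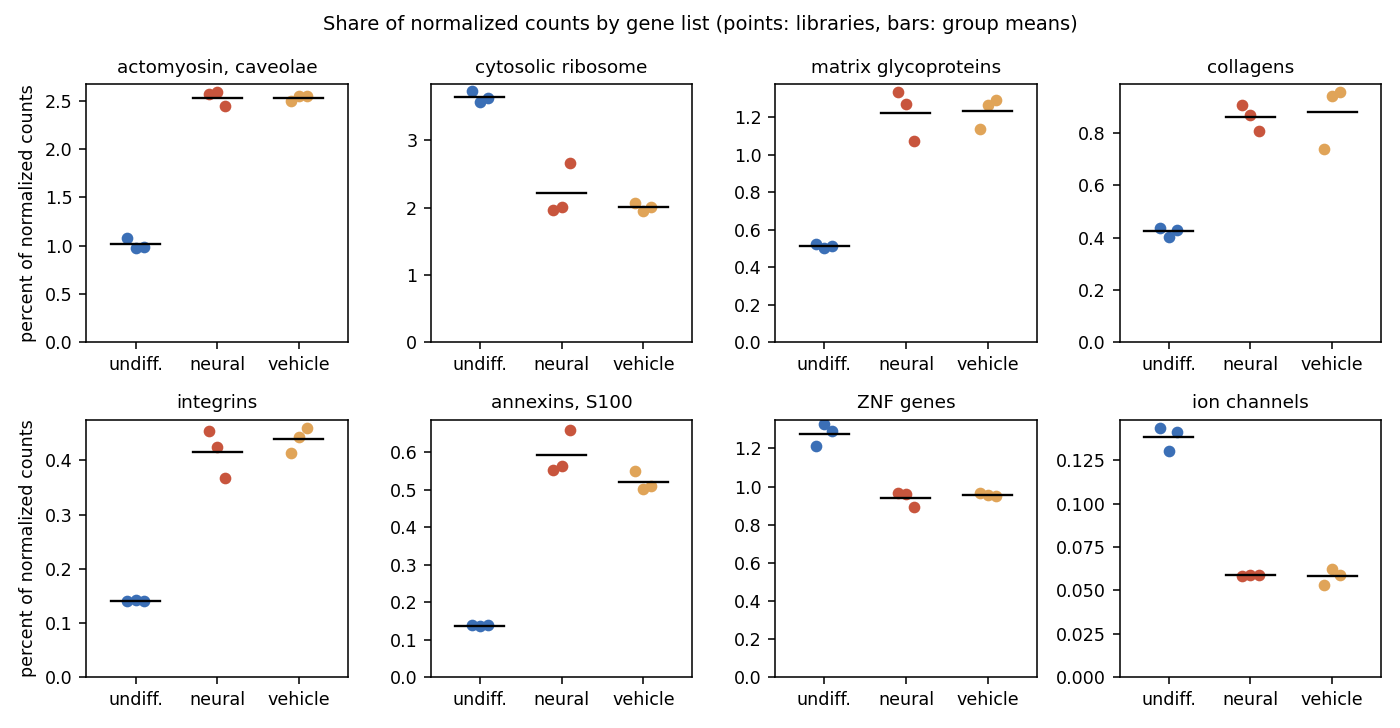
Share of normalized counts (percent, y axis) held by 8 gene lists in each library, with undifferentiated, neural and vehicle libraries as points and the group mean as a bar. The actomyosin list rises from 1.01% to 2.53%, while cytosolic ribosomal proteins fall from 3.65% to 2.21%, and vehicle libraries sit beside the neural ones.

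Most integrin genes rose. Of 20 integrin genes, which pair into receptors for matrix proteins, 17 were higher and 1 lower, 12 and 1 of them at least 2-fold, with a median log2 fold change of 1.69. ITGA3, a laminin receptor subunit, had 1156, 877 and 886 counts before and 11889.5, 11936 and 11566 after (log2 fold change 3.61 ± 0.09 (SE), adjusted p = 2.12e-15). ITGAV, shared by receptors for vitronectin and fibronectin, had 2124, 2385 and 2084 and 15069, 12772 and 9485 (log2 fold change 2.48 ± 0.12 (SE), adjusted p = 1.18e-11), with neural libraries well above the others. ITGB1, the subunit common to most matrix receptors, rose from 5887 ± 201.0 to 16998 ± 2611, ITGA2, a collagen receptor subunit, from 343 ± 28.7 to 3511 ± 813 and ITGA9 from 103 ± 11.6 to 1789.6 ± 254. The one fall was ITGA2B, the platelet fibrinogen receptor subunit, from 267 ± 21.3 to 27.3 ± 12.4.

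Lists of matrix genes held rises and falls, with more rises in each. Among collagens, 20 of 35 were higher and 13 lower, 12 and 10 at least 2-fold, and their summed share of counts was 0.424% in undifferentiated and 0.861% in neural cells. COL1A2, a chain of fibrillar collagen, had 6569, 6429.8 and 6867 counts before and 42399, 40952 and 37282 after, and COL8A1, a network collagen of vessels, rose from 29.98 ± 15.1 to 991 ± 91.02. COL9A3, a cartilage collagen, fell from 2481 ± 251 to 53.8 ± 11.3 and COL23A1, a transmembrane collagen, from 291 ± 18.4 to 4.60 ± 1.54. Matrix glycoproteins and their processing enzymes were higher in 29 of 40 and lower in 9, 19 and 6 at least 2-fold, with a share of 0.513% and 1.23%. Laminins were higher in 8 of 11 and lower in 3. TNC, the matrix protein tenascin C of neural stem cell niches, went from 1624, 1039.6 and 1113 to 50429, 45507 and 35314 (log2 fold change 5.13 ± 0.15 (SE), adjusted p = 8.53e-15). LOX and LOXL4, which crosslink collagen and elastin, rose from 14.8 ± 4.33 to 379 ± 74.4 and from 34.3 ± 14.3 to 1833 ± 71.5, and THBS2, a thrombospondin, fell from 643 ± 34.9 to 64.9 ± 8.99. In the list of matrix proteases and their inhibitors 20 of 36 were higher and 12 lower, 16 and 8 at least 2-fold, with a share of 0.129% and 0.617%. PLAU, the urokinase protease, had 1183, 909 and 1027 before and 22570.4, 22422 and 25236 after (log2 fold change 4.50 ± 0.09 (SE), adjusted p = 2.19e-16), and MMP14, a membrane-bound collagenase, rose from 1660.5 ± 136 to 28971 ± 1595. TIMP3, a protease inhibitor bound to the matrix, rose from 169 ± 31.4 to 6412 ± 188, while ADAMTS19 fell from 654 ± 51.6 to 19.3 ± 6.20.

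Actomyosin genes gave one of the most uniform rises. Of 38 genes for contractile filaments and caveolae, 36 were higher and 2 lower, and 32 rose at least 2-fold (median 1.64). TAGLN, the actin-binding protein transgelin, had 2087, 1394 and 1259.6 counts before and 12442, 12203 and 13919.5 after (log2 fold change 3.06 ± 0.13 (SE), adjusted p = 1.04e-12). CAV1, which builds caveolae, had 312, 229 and 212 and 3381, 3533 and 3332. LMNA, the nuclear lamin of stiff cells, rose from 1017 ± 77.4 to 6402 ± 1000.4. Among annexins and S100 proteins, which bind calcium and membranes, 18 of 20 were higher and 0 lower (median 1.95). ANXA1 went from 1005, 689.6 and 452 to 30397, 30879 and 33218 (log2 fold change 5.53 ± 0.18 (SE), adjusted p = 3.28e-14) and S100A3 rose from 13.2 ± 6.73 to 927 ± 147. Targets and factors of YAP and TEAD, the transcriptional arm of the Hippo pathway, were higher in 24 of 27 and lower in 3 (median 1.01). CCN2, a matricellular growth factor, had 3331, 2093 and 1936 before and 29456, 25763 and 25431 after (log2 fold change 3.49 ± 0.16 (SE), adjusted p = 2.59e-12), and ANKRD1, a nuclear ankyrin protein, 1415, 851 and 588 and 19147, 18919 and 20518 (log2 fold change 4.45 ± 0.20 (SE), adjusted p = 2.14e-12). WWTR1, the cofactor TAZ, rose from 228 ± 12.6 to 1491 ± 90.6.

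Other cell types share these genes. Marker lists of mesenchyme, amnion and trophoblast were mostly higher, while those of crest, glia, mesoderm and endoderm were not. In the list of endothelium and blood most genes were higher too, but its summed share was lower. In a list of fibroblast and mesenchyme markers, 20 of 26 genes were in the table, 15 were higher and 4 lower, and its summed share of counts ran from 0.229 to 0.248% in undifferentiated and from 0.915 to 0.986% in neural libraries. Against the direction of that list, DDR2, a collagen receptor of fibroblasts, fell from 82.7 ± 8.16 to 17.1 ± 5.11 and PDGFRA, a receptor of mesenchyme, from 49.7 ± 11.6 to 26.3 ± 7.57, the latter with limma adjusted p = 0.0506 without UNDIF replicate 2. Surface ectoderm and amnion markers had 18 of 24 genes in the table, 13 higher and 5 lower, with a summed share of 0.0661 to 0.0722% and 0.436 to 0.527%. GATA3, a factor of both amnion and trophoblast, rose from 54.3 ± 9.69 to 958 ± 58.8, while TFAP2A, which defines surface ectoderm, fell from 69.7 ± 4.23 to 27.8 ± 6.67 and GABRP, an amnion marker, from 115 ± 15.7 to 1.32 ± 1.14. Endothelium and blood markers were higher in 7 and lower in 4 of 12 tested of 25, with summed shares of 0.0467 to 0.0537% and 0.0367 to 0.0406%. CDH5, the endothelial cadherin, rose from 38.5 ± 21.8 to 519 ± 42.4, while KDR, an endothelial growth factor receptor, fell from 4226 ± 543 to 557 ± 90.7 and VWF from 358 ± 40.9 to 16.1 ± 4.04. Neural crest markers were higher in 5 and lower in 11 of 19 tested of 24, with 0.0861 to 0.0949% and 0.0463 to 0.0538%. SOX10, a defining crest factor, fell from 144 ± 29.7 to 21.3 ± 0.346 and FOXD3 from 70.8 ± 22.9 to no read. Glia markers were higher in 3 and lower in 12 of 15 tested of 22, with summed shares of 0.261 to 0.287% and 0.316 to 0.407%. Trophoblast markers were higher in 7 and lower in 1 of 11 tested of 26, with summed shares of 0.0118 to 0.0128% and 0.0267 to 0.0346%. Mesoderm markers were higher in 4 and lower in 4 of 10 tested of 28, with summed shares of 0.0322 to 0.0403% and 0.0791 to 0.0841%. Endoderm markers were higher in 1 and lower in 2 of 4 tested of 25, with summed shares of 0.0184 to 0.0215% and 0.00817 to 0.0101%. The summed shares of the glia and mesoderm lists were thus higher in neural cells although their counts were not mostly higher. In the glia list TNC alone went from 0.00834% to 0.263% of counts, a larger gain than that of the whole list. The other glia markers together therefore lost share. The part of such cells in the rises above was not tested.

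Epithelial lists moved in different directions: most identity and tight junction genes fell, while most desmosome genes and all keratins rose. Of 22 epithelial identity genes 13 were lower and 4 higher. ESRP1, an epithelial splicing regulator, had 1173, 1490.3 and 1360.0 counts before and 247, 205 and 210.2 after (log2 fold change -2.59 ± 0.10 (SE), adjusted p = 2.82e-13), and GRHL2, an epithelial transcription factor, fell from 534 ± 45.02 to 84.96 ± 12.7. Tight junction and polarity genes were lower in 18 of 27 and higher in 5. CLDN3 and CLDN10 fell, from 499 ± 56.7 to 127 ± 32.7 and from 316 ± 32.2 to 61.4 ± 8.97, while CLDN1, another claudin, rose from 70.6 ± 10.8 to 821 ± 78.9. Desmosome genes were higher in 8 of 12 and lower in 1, with 3 at least 2-fold higher (median 0.38) and a summed share of 0.147% before and 0.188% after. All 9 keratins in the table were higher, 7 of them at least 2-fold. KRT8 went from 4712, 4477 and 4929 to 31546, 30738 and 38618 and its partner KRT18 from 1150.0, 1029 and 1118 to 10097, 10094 and 12446, with every neural library above every undifferentiated one. The vehicle libraries had 25335, 26703 and 26315 for KRT8 and 7740.0, 8287 and 8376 for KRT18. Both genes have processed pseudogenes, and how reads shared with them were counted is not given in the sources used here.

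Several families exchanged members. CDH1, the cadherin of epithelia, fell from 3994 ± 95.7 to 1423 ± 144 as CDH2, the neural cadherin, rose from 3135 ± 105 to 11088 ± 984. CDH9 fell from 200.9, 184 and 203 counts to 0, 0.978 and 0.996. Protocadherins, which sort neural cells by type, were near the background, with 14 of 34 higher and 11 lower, 7 and 7 at least 2-fold. PCDH18 went from 8693, 8677 and 9787 to 285, 238 and 204 (log2 fold change -5.23 ± 0.11 (SE), adjusted p = 3.80e-16), and PCDH19 the other way, from 207, 181 and 194 to 5622, 5299 and 3701 (log2 fold change 4.62 ± 0.14 (SE), adjusted p = 1.58e-14). Eph receptors and ephrins, which repel or attract neighbouring cells, were lower in 12 of 18 and higher in 6. EPHA7 fell from 1255 ± 83.95 to 102 ± 31.2 and EPHA3 from 155 ± 29.1 to 1.32 ± 1.14, while EPHA2 rose from 1211 ± 159 to 5735 ± 287 and the ligand EFNB2 from 910.2 ± 2.49 to 5838 ± 615.

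**Figure D3:**
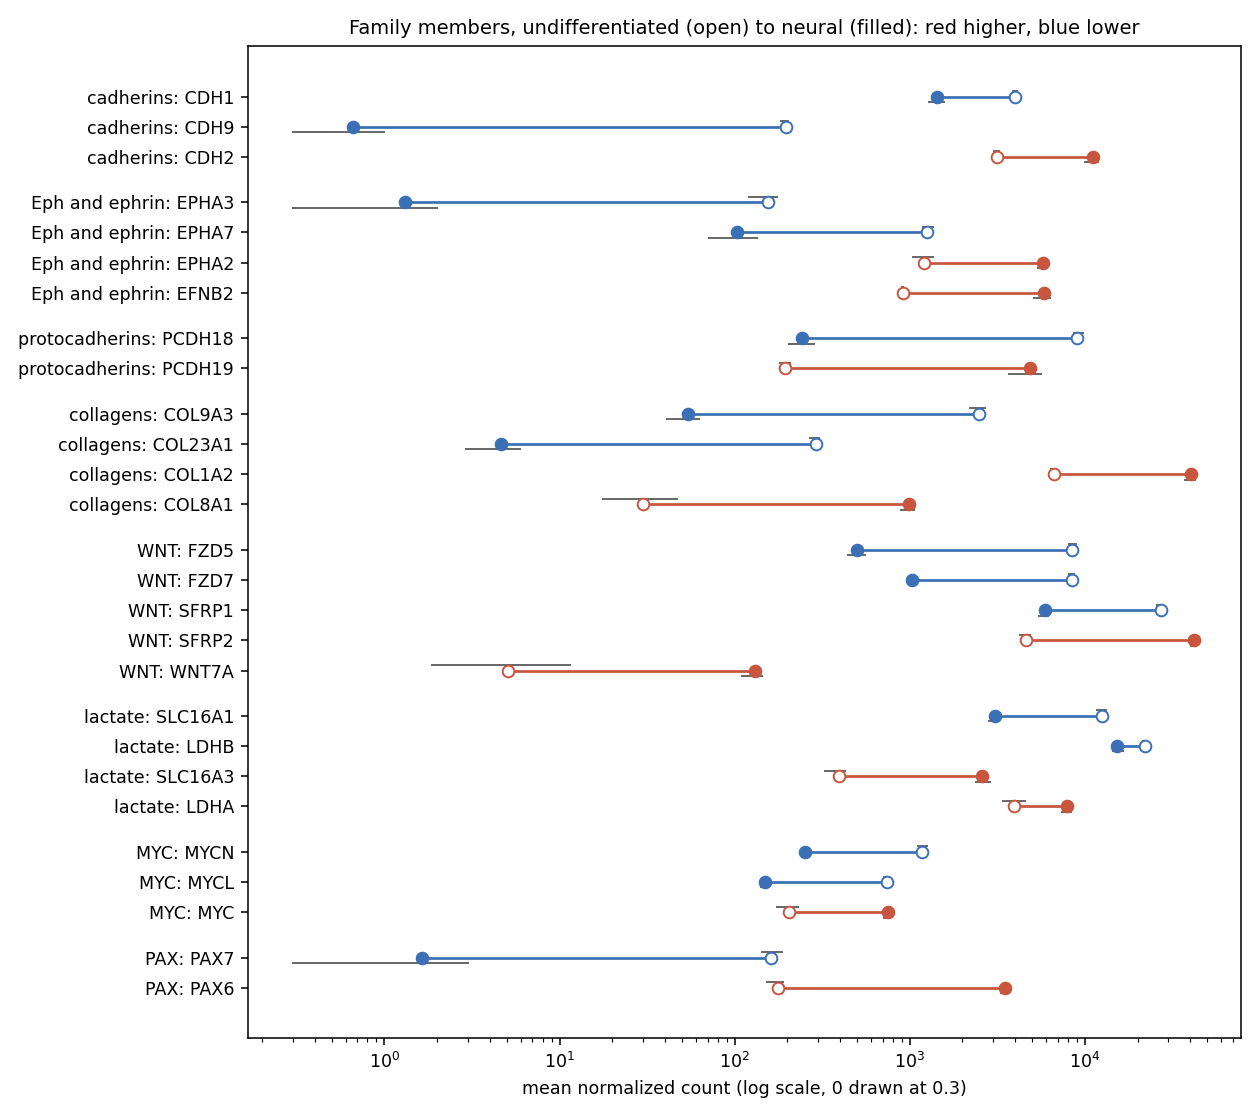
Mean normalized counts (x axis, log scale, 0 drawn at 0.3) of members of 8 gene families in undifferentiated (open) and neural (filled) cells, joined by a line, with thin bars for the range over 3 libraries. Within each family some members fall while others rise, as for CDH1 and CDH2.

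Most genes in the lists of inflammatory signalling were higher, and 20 of the NF-kB list, 11 of the TNF list and 13 of the interferon list averaged under 100 counts before differentiation. In a list of NF-kB targets, chemokines and inflammatory cytokines 28 of 37 were higher and 7 lower, 27 and 4 at least 2-fold (median 1.77). CCL2, which attracts monocytes, had 123, 138 and 165 counts before and 4977, 3793 and 4951 after (log2 fold change 4.99 ± 0.14 (SE), adjusted p = 7.53e-15), and vehicle libraries had 3842, 5287 and 5742. IL32, a cytokine, had 5.74, 3.76 and 6.51 before and 466, 371 and 532 after, and CXCL2, a neutrophil chemokine, 4.78, 1.88 and 2.79 and 156, 139 and 127. TNFAIP3 and NFKBIA, inhibitors that NF-kB itself induces, rose from 88.01 ± 8.91 to 929.7 ± 165 and from 339 ± 48.2 to 807 ± 47.3. ICAM1, an adhesion receptor for leukocytes, rose from 82.7 ± 13.1 to 958 ± 78.6, and CCL26, an eotaxin, fell from 56.6 ± 5.30 to 1.99 ± 2.64. TNF ligands and receptors were higher in 18 of 26 and lower in 5. LTB, lymphotoxin beta, rose from 10.04 ± 2.77 to 504 ± 143, and TNF itself from 0.942 ± 0.0137 to 47.6 ± 6.64. Interferon-stimulated genes were higher in 27 of 36 and lower in 5. GBP2, a guanylate-binding protein, rose from 4.40 ± 1.96 to 270.1 ± 24.2 and IFIT3 from 5.64 ± 3.38 to 143 ± 4.61, while the more abundant BST2 fell from 4451 ± 111 to 1479 ± 239, and the summed share of the list was 0.115 ± 0.0000300% before and 0.110 ± 0.00426% after. In AP-1 and other immediate early factors, which growth factors and stress induce within minutes, 13 of 17 were higher and 2 lower (median 2.26). JUNB had 63.1, 45.2 and 51.1 before and 909, 810.1 and 1064 after (log2 fold change 4.10 ± 0.14 (SE), adjusted p = 8.51e-14), JUN rose from 174 ± 77.7 to 1650.2 ± 48.8 and FOSL2 from 222 ± 32.8 to 2250.3 ± 227. NR4A1, an orphan receptor of the same early response, fell from 336 ± 47.8 to 214 ± 29.3.

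The promoters of these rising genes were read for short factor motifs, as a description chosen after the values were seen. The sequences come from RefSeq (GRCh38.p14), 250 bases before to 50 after each start, and 10198 tested genes matched by symbol, with 15076 starts. The promoters of 5 genes that rose strongly and hold a motif are shown, as the 250 bases upstream of the start, with the motif in capitals. They do not stand for all rising genes. CXCL2 (chr4:74099196-74099445, minus strand) and CCL20 (chr2:227813592-227813841, plus strand) hold the kB motif GGGNNTTTCC on one strand or the other, 78 to 69 and 79 to 70 bases upstream. CCN2 (chr6:131951373-131951622, minus strand) and ANKRD1 (chr10:90921088-90921337, minus strand) hold 3 and 2 copies of the TEAD motif GGAATG, and MMP10 (chr11:102780629-102780878, minus strand) holds the AP-1 motif TGANTCA 67 to 61 bases upstream.
CXCL2: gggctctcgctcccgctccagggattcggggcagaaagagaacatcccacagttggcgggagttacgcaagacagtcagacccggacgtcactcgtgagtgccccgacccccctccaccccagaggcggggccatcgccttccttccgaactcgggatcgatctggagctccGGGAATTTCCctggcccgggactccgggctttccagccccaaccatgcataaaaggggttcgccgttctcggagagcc
CCL20: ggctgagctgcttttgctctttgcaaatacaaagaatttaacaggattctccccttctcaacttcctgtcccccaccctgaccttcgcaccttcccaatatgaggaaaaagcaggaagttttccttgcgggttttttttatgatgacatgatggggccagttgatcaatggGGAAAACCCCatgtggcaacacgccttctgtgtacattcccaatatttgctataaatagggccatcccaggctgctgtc
CCN2: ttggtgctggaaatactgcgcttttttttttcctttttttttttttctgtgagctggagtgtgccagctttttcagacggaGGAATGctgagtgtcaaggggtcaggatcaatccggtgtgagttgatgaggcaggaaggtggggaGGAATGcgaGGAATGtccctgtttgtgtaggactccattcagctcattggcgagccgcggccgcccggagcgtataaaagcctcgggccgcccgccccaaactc
ANKRD1: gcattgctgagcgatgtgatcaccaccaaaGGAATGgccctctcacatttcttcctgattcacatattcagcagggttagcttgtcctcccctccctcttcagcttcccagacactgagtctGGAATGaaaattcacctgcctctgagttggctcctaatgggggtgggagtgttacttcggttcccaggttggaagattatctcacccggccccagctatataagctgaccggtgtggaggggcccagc
MMP10: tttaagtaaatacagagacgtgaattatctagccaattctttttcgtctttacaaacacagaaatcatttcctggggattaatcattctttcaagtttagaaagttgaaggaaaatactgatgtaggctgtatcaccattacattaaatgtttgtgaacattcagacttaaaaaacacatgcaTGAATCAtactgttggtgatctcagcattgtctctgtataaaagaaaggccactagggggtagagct
MMP10, a secreted protease of the stromelysin group, rose from 3.15 ± 1.12 to 82.7 ± 2.29.

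A total of 5 motifs was searched on both strands: kB, TEAD, AP-1 (its own reverse complement), the CArG box and the cyclic AMP element TGACGTCA, which has the ends TGA and TCA in common with AP-1 around a longer middle. The kB motif was in 1.92% of all promoters in the RefSeq table, in 2.77% of promoters of genes at least 2-fold higher, in 1.93% of those at least 2-fold lower and in 1.88% of the other tested genes. In the NF-kB list, which was written from known targets, it was in 15 of 42 promoters (35.7%), which belong to 14 of 30 genes with a promoter, among them CXCL1, IL6, BIRC3 and NFKBIA. CXCL1 and CXCL2 are close paralogs, and reads shared between them could not be checked. AP-1 was in 7.68% of all promoters, and in 8.99%, 5.51% and 4.65% of those 3 tested groups in the same order. The TEAD motif was in 14.04%, and in 13.2%, 12.2% and 11.04%, with 11 of 30 promoters (36.7%), which belong to 11 of 21 genes of the YAP list. That list, too, was written to hold targets of YAP and TEAD. The CArG box, bound by serum response factor, was in 1.30%, and in 2.06%, 0.941% and 0.988%, with 11 of 70 promoters (15.7%), which belong to 9 of 32 genes of the actomyosin list. The cyclic AMP element was in 1.85%, and in 2.38%, 1.84% and 2.99%. AP-1 was in 1 of 18 promoters (5.56%) of the immediate early list and in 3 of 25 (12%) of the matrix protease list. These shares carry no test, and a match is not a bound site.

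**Figure D4:**
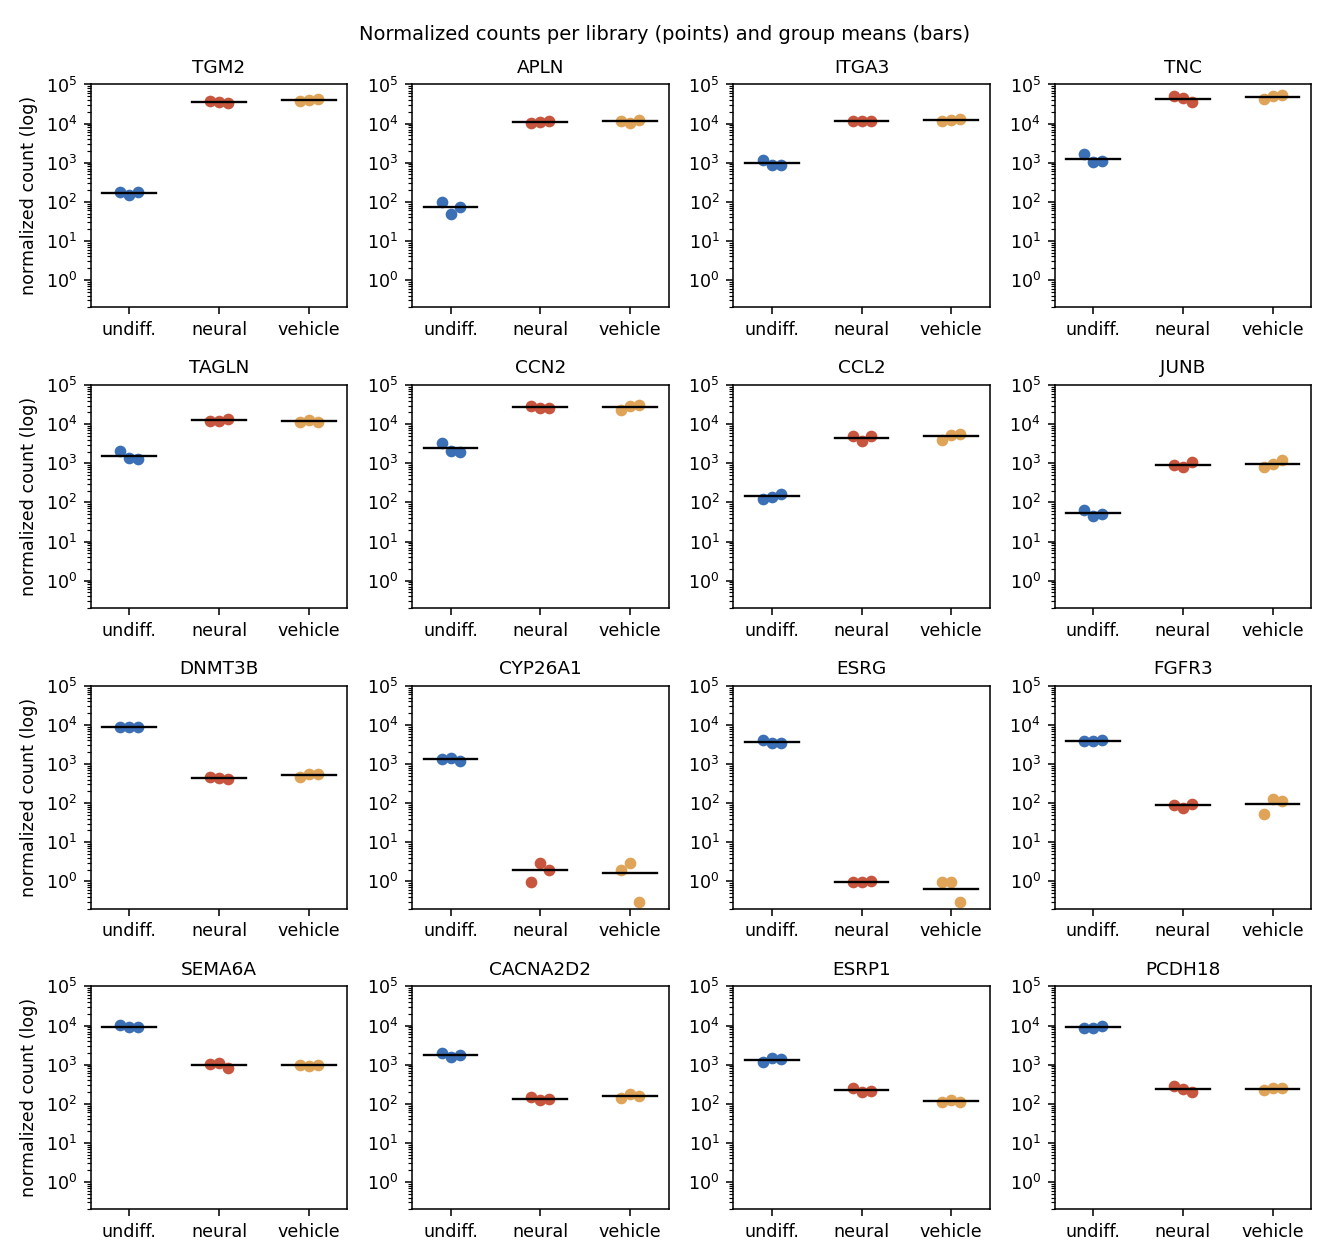
Normalized counts per library (y axis, log scale, 0 drawn at 0.3) of 16 genes in undifferentiated, neural and vehicle libraries, 1 point per library with the group mean as a bar. In the top 2 rows neural libraries lie above undifferentiated ones and in the bottom 2 rows below them, with vehicle libraries beside the neural ones.

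Growth factor lists differed in their balance. In the IGF system 13 of 22 genes were higher and 4 lower. IGFBP3 and IGFBP5, which bind IGF outside the cell, had 88.98, 61.2 and 68.8 and 654, 479 and 536 counts before and 6545, 6316 and 6451 and 16887, 16915 and 12957 after. The ligand IGF1 rose from 0.319 ± 0.552 to 158 ± 27.1 and the receptor IGF1R from 3308 ± 86.5 to 9778 ± 1849. The FGF and ERK list was divided, with 13 higher and 11 lower of 25. At least 2-fold, 10 were higher and 9 lower, larger shares than the 15.4% and 16.5% of all genes. Within it FGF receptors fell, FGFR3 from 3775, 3784 and 4052 to 91.9, 76.3 and 95.6 (log2 fold change -5.45 ± 0.21 (SE), adjusted p = 3.20e-13), FGFR2 from 4261 ± 141 to 260.2 ± 43.97 and FGFR4 from 1646 ± 126 to 131 ± 16.02. DUSP4, a phosphatase that ERK induces, rose from 283 ± 10.5 to 6307 ± 410.1, and the ligand FGF2 fell from 2092 ± 205 to 377 ± 28.7. In the EGF list 4 of 11 were higher and 6 lower. EGFR, the receptor for the EGF of the medium, rose from 302 ± 17.7 to 2699 ± 545 and its ligand HBEGF from 79.9 ± 16.96 to 2570.5 ± 113, while ERBB3 fell from 712 ± 21.04 to 162 ± 33.1.

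In the list of NODAL, activin and TGF-beta signalling, 13 of 29 were higher and 13 lower, 11 and 7 at least 2-fold. The 2-fold shares were above those of all genes (15.4% and 16.5%). FOXH1, which directs SMAD proteins to NODAL targets, went from 658, 553 and 537 to 0, 1.96 and 3.98. TGFB1 and TGFB2, the ligands, rose from 270.0 ± 38.9 to 2917 ± 258 and from 46.9 ± 18.3 to 1603 ± 212, and the antagonist FST fell from 5831 ± 34.7 to 419.5 ± 5.999. Of BMP pathway genes 15 of 32 were higher and 12 lower. The BMP targets ID1, ID2 and ID4 fell, from 3964 ± 146 to 1032 ± 107, from 1337 ± 90.1 to 216 ± 3.06 and from 3246 ± 175 to 179.7 ± 9.32, while the antagonist NOG rose from 23.5 ± 3.08 to 378 ± 68.5 and the ligand BMP2 from 57.5 ± 13.05 to 825 ± 23.97. WNT ligands, Frizzled receptors and R-spondins were lower in 16 of 31 and higher in 9. FZD5 and FZD7, both Frizzled receptors, fell from 8436 ± 446 to 497 ± 53.2 and from 8451 ± 293 to 1023 ± 16.8, and the ligand WNT7A rose from 5.07 ± 5.55 to 130.3 ± 17.5. The secreted antagonists moved in opposite directions, SFRP1 from 25831, 27885 and 27947 to 6066, 6194 and 5503 and SFRP2 from 4856, 4242 and 4767 to 43097, 40268 and 43081, each with groups that did not overlap. The gene SP5, which WNT signals induce directly, fell from 694 ± 98.4 to 1.65 ± 1.52. Retinoid genes were lower in 12 of 18 and higher in 5, and ALDH1A1, which makes retinoic acid, rose from 28.6 ± 4.71 to 311 ± 47.2 as ALDH1A2, of the same function, fell from 173 ± 3.02 to 7.90 ± 4.02.

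Channel, receptor and synaptic genes fell in the main. Of 72 genes for sodium, calcium and potassium channels, not all of them voltage-gated, 51 were lower and 17 higher, 41 and 11 at least 2-fold. Their median log2 fold change was -1.28. CACNA2D2, an auxiliary calcium channel subunit, had 1949.9, 1583 and 1723 counts before and 151, 122 and 129 after (log2 fold change -3.70 ± 0.12 (SE), adjusted p = 6.06e-14). SCN4A, a sodium channel of muscle, fell from 511 ± 48.2 to 23.6 ± 2.20 and the potassium channel KCNG3 from 223 ± 34.3 to 2.30 ± 1.15, while KCNF1 rose from 33.4 ± 14.97 to 488 ± 102. Receptors for glutamate, GABA, glycine and acetylcholine were lower in 25 of 31 and higher in 4 (median -1.71). GRIA1, an AMPA receptor subunit, was among the higher ones and went from 8.61, 5.65 and 9.30 to 259, 289.6 and 207. Synaptic vesicle, release and adhesion genes were lower in 31 of 43 and higher in 8. UNC13A, which primes vesicles for release, fell from 903 ± 87.9 to 138 ± 4.01 and NLGN3, a postsynaptic adhesion protein, from 584 ± 46.95 to 67.2 ± 2.46. In undifferentiated cells 28 of the channel genes and 13 of the receptor genes had a mean under 100 counts, and in neural cells 46 and 23. Among the 11026 genes averaging 100 counts or more over all 12 libraries, 1205 were at least 2-fold lower and 1679 higher. Among all 13310 genes these numbered 2200 and 2056. Most of the 12 libraries are neural cultures, so this filter removes genes that fall more readily than genes that rise. It cannot show whether low genes fell more often. The lists above were not compared with genes of similar level.

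Genes that guide growing axons moved without a common direction. Semaphorins, plexins, netrins, slits and their receptors were higher in 22 of 48 and lower in 20. SEMA6A, a transmembrane semaphorin, went from 10068, 9071 and 9129 to 1056, 1078 and 837 (log2 fold change -3.26 ± 0.09 (SE), adjusted p = 1.08e-14), while NRP1, a semaphorin coreceptor, rose from 59.01 ± 4.55 to 651 ± 32.3 and PLXNA2 from 240.5 ± 17.6 to 2254 ± 437. DCC, the netrin receptor, rose from 16.7 ± 3.11 to 190.1 ± 66.6. Neural cell adhesion molecules were higher in 15 of 30 and lower in 11. L1CAM, which supports axon growth, had 236, 222 and 163 before and 4376, 4695 and 4202 after (log2 fold change 4.43 ± 0.10 (SE), adjusted p = 6.21e-16), and NRCAM rose from 499.5 ± 42.8 to 2861 ± 519.9. CNTN2, an axonal contactin, fell from 613 ± 119 to 20.3 ± 4.27. Among neuron markers 8 of 18 tested of 30 were higher and 8 lower, and their summed share was 0.0454 to 0.0470% in undifferentiated and 0.0341 to 0.0386% in neural libraries. STMN2, a tubulin regulator of growing axons, rose from 37.8 ± 11.01 to 215 ± 20.3, and MAP2, a dendritic microtubule protein, fell from 2434 ± 173 to 493 ± 97.6.

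Genes of cytosolic ribosomal proteins fell modestly, while other lists on translation were divided. Cytosolic ribosomal proteins were lower in 60 of 70 and higher in 3, but only 3 fell at least 2-fold (median -0.53). Without NEUR replicate 3 they numbered 6 and the higher ones 1. RPL3 had 46153, 42884 and 43504 counts before and 22289, 23257 and 27244 after (log2 fold change -0.87 ± 0.08 (SE), adjusted p = 2.64e-08). Reads that these genes share with pseudogenes could not be checked. Mitochondrial ribosomal proteins were higher in 21 of 56 and lower in 18, with none changed 2-fold. Without NEUR replicate 3 these numbered 15 and 23, and with library totals 11 and 22, so the list has no firm direction. Cytosolic aminoacyl-tRNA synthetases were higher in 10 of 20 and lower in 6, and ribosome biogenesis genes in 9 and 20 of 46. The MYC family exchanged members, with MYCN and MYCL down from 1177 ± 72.2 to 251 ± 14.3 and from 741 ± 25.5 to 149 ± 6.01, and MYC up from 205 ± 28.4 to 749 ± 31.6. Most proteasome and lysosomal genes rose. Proteasome subunits were higher in 27 of 32 and lower in 3, with a median of 0.45, and lysosomal genes in 34 and 8 of 50. CTSB, a cathepsin protease, had 2441, 2338 and 2411 before and 10341, 9767 and 10550.4 after (log2 fold change 2.09 ± 0.07 (SE), adjusted p = 2.72e-14).

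Metabolic lists held exchanges between isoenzymes and carriers. Glycolysis and glucose transport were near the background, with 12 of 28 higher and 9 lower. SLC16A1 and SLC16A3, both lactate carriers, moved in opposite directions, from 11795, 13191 and 12701 to 3185, 3164 and 2836 and from 429, 418 and 330.0 to 2403, 2502 and 2857. LDHA, a lactate dehydrogenase subunit, rose from 3937 ± 577 to 7892 ± 439 as LDHB fell from 22004 ± 550.3 to 15275 ± 1172. Oxidative phosphorylation genes of the nucleus were called in 11 cases higher and 20 lower, and 29 of 60 did not pass. Without NEUR replicate 3 these numbered 7 higher and 30 lower, and with library totals 6 and 31. FASN, fatty acid synthase, fell from 22225 ± 2143 to 9187 ± 636 and SCD, which desaturates fatty acids, from 13696 ± 90.1 to 5845 ± 601. FABP7, a lipid-binding protein known from radial glia, fell from 506 ± 6.71 to 16.4 ± 2.49. NQO1, a target of the antioxidant factor NRF2, rose from 659 ± 32.03 to 4555 ± 438 within a list of 20 higher and 9 lower of 36. The 4 metallothioneins, which bind zinc and copper, all fell, MT1G from 76.01 ± 11.7 to 0.652 ± 0.565.

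Genes of replication, mitosis and recombination were mostly lower, most by less than 2-fold, while G1 regulators and histones were more often higher. DNA replication genes were lower in 35 of 54 and higher in 6 (median -0.30), and mitosis genes in 31 and 3 of 45 (median -0.44). MCM3, a helicase subunit, had 8835, 8811 and 8961 before and 4779.7, 4827 and 4699 after, and TOP2A, topoisomerase II, fell from 13832 ± 1030.1 to 5845 ± 714. Homologous recombination and Fanconi anaemia genes were lower in 23 of 31 and higher in 4. G1 cyclins, kinases and inhibitors were higher in 15 of 25 and lower in 7, and histones in 10 and 4 of 19. Among the former CDKN2B, the inhibitor p15, had 14.4, 5.65 and 5.58 before and 597, 526 and 477 after (log2 fold change 5.93 ± 0.23 (SE), adjusted p = 3.98e-13), and CCND2, a D-type cyclin, rose from 1380.0 ± 138 to 6549 ± 108. Histone reads come from polyadenylated RNA and leave out any histone transcripts without a poly(A) tail. Of the 19 histone genes, 9 averaged under 100 counts in undifferentiated cells. Genes of apoptosis were higher in 22 of 29 and lower in 4, on both sides of the decision to die. BMF, which promotes death, rose from 889 ± 26.5 to 4008 ± 253 and BCL2L1, which opposes it, from 3028 ± 441 to 7783 ± 182.

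Chromatin and DNA methylation genes included a few large changes. DNMT3B, a de novo methyltransferase, had 8756, 8684 and 8637 counts before and 478, 435 and 409 after (log2 fold change -4.30 ± 0.08 (SE), adjusted p = 3.31e-17), while DNMT1, which maintains methylation, went from 5971 ± 234 to 4782 ± 452. TET1, which oxidizes methylcytosine, fell from 1792 ± 182 to 246 ± 69.4 and TET2 rose from 315 ± 15.1 to 546 ± 153. In Polycomb complexes CBX2 fell from 3962 ± 257 to 757 ± 28.00, and PHC2 rose from 1076 ± 49.8 to 4800.5 ± 167 as PHC1 fell from 456 ± 38.7 to 149 ± 2.94. HMG chromatin proteins were lower in 12 of 14 and higher in 1. The 399 zinc finger genes with ZNF symbols were lower in 264 and higher in 68 (median -0.48), and 79 fell at least 2-fold. ZNF589 fell from 1970.1 ± 113 to 479 ± 25.9, and ZNF703, a corepressor, rose from 79.4 ± 33.2 to 1788 ± 231. Reads shared among close relatives in this family could not be checked. Among imprinted genes H19, a noncoding RNA, rose from 186, 161 and 159 to 5332, 4905 and 6782 (log2 fold change 5.05 ± 0.16 (SE), adjusted p = 4.00e-14), and MEG3, another, fell from 348, 385 and 405 to 4.89, 1.96 and 12.95.

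Transcription factor families had both gains and losses. ZIC, IRX, OTX and related homeobox factors were lower in 16 of 20 and higher in 4. IRX2, an Iroquois factor, had 2284, 2005 and 2049 before and 108, 137 and 129 after (log2 fold change -4.08 ± 0.11 (SE), adjusted p = 2.85e-15). SOX2 fell from 9263 ± 1307 to 1335 ± 64.02 and SOX21, a repressor in neural progenitors, from 2379 ± 68.5 to 176 ± 22.6, while SOX9, a gliogenic factor, rose from 247 ± 43.9 to 574 ± 9.91. PAX7, a dorsal factor, fell from 161 ± 22.1 to 1.65 ± 1.52 opposite to PAX6. NR2F2, the paralog of NR2F1, rose from 486, 356 and 363 to 4482, 4858 and 4135, and POU3F2, a neural POU factor, from 32.98 ± 6.58 to 388 ± 60.6. BHLHE40, a repressor of the circadian clock, rose from 23.97 ± 10.8 to 1512 ± 88.99 and KLF6 from 394 ± 27.7 to 5249 ± 283. MEIS1 and MEIS2, cofactors of HOX proteins, rose from 11.3 ± 3.58 to 281 ± 21.4 and from 365 ± 35.8 to 1961 ± 73.5. Markers of forebrain and other neural regions were higher in 6 and lower in 9 of 15 tested of 35, and OTX2, a factor of forebrain and midbrain, fell from 4785 ± 143 to 2294 ± 61.6.

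Host transcripts of microRNAs were among the losses, and they were named after their values were seen. The miR-302 cluster is known from human pluripotent cells, and its members act through one seed, bases 2 to 8 of the mature RNA, in capitals here (RefSeq, GRCh38.p14, both on the minus strand of chromosome 4, chr4:112648366-112648388 and chr4:112648006-112648028).
hsa-miR-302c-3p: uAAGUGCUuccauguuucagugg
hsa-miR-302d-3p: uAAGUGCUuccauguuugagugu
Reads over the MIR302C gene were 64.1, 90.3 and 77.2 counts in undifferentiated libraries and none in any neural library (at least 78.4-fold lower). Those over MIR302D were 38.3, 54.6 and 61.4 before and none after (at least 52.2-fold lower). The host transcript MIR302CHG went from 216, 242 and 220.3 to 8.80, 2.94 and 8.97 (log2 fold change -4.96 ± 0.41 (SE), adjusted p = 7.23e-09). These reads come from polyadenylated RNA and do not measure the mature microRNA, and those over the hairpin genes cannot be told apart from the overlapping host. MIR17HG, host of the miR-17 cluster, fell from 176 ± 22.9 to 36.4 ± 7.003, while MIR22HG rose from 43.3 ± 7.34 to 464 ± 14.1. LINC00458, a noncoding RNA of stem cells, fell from 337 ± 103 to 38.1 ± 7.73.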

How the data were processed

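RNA-seq of 12 H9 libraries (4 groups of 3) was analysed from the authors' table of 13310 genes. The submitters' processing notes name STAR, HTSeq and DESeq2, R 4.3.1 and the genome hg19. The signal deposited by the authors is a read count per gene, divided by a size factor for its library, plus 1. After 1 was subtracted, 100% of values were whole multiples of 1 step per library within a tolerance of 0.01, which gave the reads per library. The deposited p-value column, the authors' FDR, was not used for any result. A further 32 of the 47 columns were not used. Library columns were matched to samples by name, and the vehicle samples' titles were followed where their treatment field reads undifferentiated. Genotype follows the labels (wild type), although the sheet's title speaks of a USP7 heterozygote.

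Log2 values of normalized counts, with a pseudocount of 1, were fitted in limma 3.58.1 under R 4.3.3. The model held 4 group means and used all 12 libraries, with trended empirical Bayes variances and Benjamini-Hochberg adjustment over 13310 genes. No further filter on low values was applied. The smallest mean over 12 libraries was 12.2 counts, so genes with lower means are not among the 13310. Markers absent from these have no level here. A gene without reads in a group is present through its counts in others. Genes were called at an adjusted p under 0.05. Folds on this scale understate the change of low genes. As alternatives, edgeR 4.0.16 and DESeq2 1.42.0 were run on the recovered reads with the same groups. The 3 tests were checked on simulated data. Symbols come from the Ensembl identifiers, and 407 genes had none. Counts per list used 98 lists, whole families by symbol pattern where one exists. The members and lists were chosen with earlier results of these data known.

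Genes named in the text are the 4 label markers, the 30 most increased and 30 most decreased called genes (with a symbol, non-overlapping groups and 100 or more counts on average in the higher group), up to 6 members per list with the largest change, the 20 largest gains and losses in share, and called markers of other cell types. The text prints values for 192 genes, of which 36 lie outside that rule and were chosen after their values were seen: BCL2L1, BST2, CACNA2D2, CDH1, DCC, DNMT1, EPHA2, FGF2, FZD7, GRIA1, ICAM1, ID1, ID2, IGF1R, ITGAV, ITGB1, KCNF1, LDHB, LINC00458, MCM3, MIR17HG, MIR22HG, MIR302C, MIR302CHG, MIR302D, NFKBIA, NLGN3, NR4A1, NRCAM, PLXNA2, SCD, SCN4A, SEMA6A, TNFAIP3, UNC13A and ZNF589. Exonic lengths are unions of GENCODE v29 exons, matched by identifier. Intervals and floors cover counting error only. Shares and correlations used Python 3.11.15 with SciPy 1.17.1.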

Additional observations from a re-analysis of the deposited data

How the results depend on the processing

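The settings tried in limma were trimmed-mean scaling, library totals, recomputed size factors (chosen after seeing the data), pseudocounts of 0.5 and 5, a filter that keeps genes averaging 100 counts or more, only the 6 libraries compared, a replicate block and each of these 6 libraries left out. Across them 10337 to 10966 genes were called where all genes were tested, against 10917, and 9031 of 11026 with the filter. Genes at least 2-fold lower numbered 1205 with that filter against 2200, and those at least 2-fold higher 1679 against 2056. The filter thus took out more falls than rises, and the balance of such changes turned. It averages over all 12 libraries, most of them neural, and so removes genes found mainly in undifferentiated cells more readily. Leaving out 1 library gave 10337 to 10827 called genes, 2029 to 2098 of them at least 2-fold higher and 2187 to 2221 lower. Library totals moved the balance from 5376 higher and 5541 lower to 4455 and 6281. The sign of the list median held for 98 of 98 lists with the 6 libraries alone, both pseudocounts and recomputed size factors, for 97 with trimmed-mean scaling, edgeR and DESeq2, 95 with edgeR without NEUR replicate 3, 93 with the filter, 88 with library totals and 95 to 96 with a library left out. Medians that turned under a scaling were those of the BMP, Notch, axon guidance, glycolysis, mitochondrial, mitochondrial ribosome, DNA methylation, forkhead, nuclear receptor, imprinted and neuron marker lists. With library totals 0 cytosolic ribosomal proteins were higher and 7 at least 2-fold lower, and 9 replication and 7 recombination genes were at least 2-fold lower, against 3 and 3, 5 and 2. Of the 192 genes with printed values, all kept direction and call in every setting run except PDGFRA, which had an adjusted p of 0.0506 without UNDIF replicate 2. Shares are the same under any scaling of whole libraries, and the 20 largest gains held 1.25% to 1.32% of undifferentiated and 5.11% to 5.13% of neural counts with a library left out. Same-numbered undifferentiated and neural libraries deviated with correlations of -0.303, 0.115 and -0.00948 across genes, and differently numbered ones with -0.287 to 0.309. Deviations from means of 3 libraries cannot show whether the numbers pair them. A replicate block called 10817 genes, 4258 of them at least 2-fold. On the recovered reads, edgeR's quasi-likelihood test called 11021 genes, 2104 of them at least 2-fold higher and 2190 lower, and DESeq2 called 10957, 2083 and 2206. The reads of NEUR replicate 3 rest on a step close to 1, and without it (chosen after seeing the data) edgeR called 10964. Reads per library limit genes near the floor of 3 reads.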
